A study of Homo sapiens with 4 samples.

Results

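The MYC, MAX and MXD network was read here as 9 genes, picked by symbol, with earlier results of these data known. They are MYC, its partner MAX, the antagonists MXD1, MXD3, MXD4, MXI1 and MNT, and the related partners MLX and MGA. Each gave 1 identifier in each gene table, and all 9 were among the 22187 genes left after identifiers with the same symbol were summed. All 9 also passed the filter on low counts and were tested.

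The data are 4 RNA sequencing libraries of total RNA from 2 human multiple myeloma cell lines with the translocation t(4;14), which joins the NSD2 and FGFR3 region to the immunoglobulin heavy chain locus. The groups were KMS28BM with a stable knockdown of PKCα, KMS28BM with a luciferase control, KMS18 with the same knockdown and KMS18 with the luciferase control, at 1 library each. The sample labels write the lines as K28BM and K18, and the knockdown construct and the number of clones are not given in the sources used here. A difference within a line therefore has no replicate check, and a test over both lines measures how alike the lines moved. In bulk RNA of this kind, fewer cells of a type and less RNA per cell cannot be told apart.

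MYC is a basic helix-loop-helix leucine zipper transcription factor that binds DNA as a dimer with MAX, at the E-box CACGTG, and raises transcription of genes for ribosome assembly, nucleotide synthesis and metabolism. The MXD proteins and MNT compete for MAX, bind the same sites and bring in the SIN3 and histone deacetylase corepressors. MLX pairs with the glucose-sensing factors MLXIP (MondoA) and MLXIPL (ChREBP) and with some MXD proteins, and MGA joins MAX to a variant Polycomb complex, PRC1.6. MYC activation is a common event in multiple myeloma.

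The libraries held 37940949 to 39507281 expected counts, and 11100 to 11591 genes reached 1 FPKM (fragments per kilobase of transcript, scaled to the depth of the library). PRKCA, the target that encodes PKCα, was at 2.43 FPKM in the KMS28BM knockdown, against 10.9 FPKM in its control, and at 1.47 FPKM in the KMS18 knockdown, against 7.46 FPKM in its control. All 8 plasma cell markers reached 1 FPKM in every library, and 6 of the 8 passed the knockdown test: 5 fell (XBP1, MZB1, IRF4, TNFRSF17 and SDC1, log2 differences -0.90, -0.83, -0.73, -0.68 and -0.65), CD38 rose (0.59), and PRDM1 and JCHAIN did not pass (edgeR adjusted p from 0.00671 to 0.0339 for those that passed). XBP1, a factor of the secretory program, had 265 FPKM in the KMS28BM knockdown, against 472 FPKM in its control, and 196 FPKM in the KMS18 knockdown, against 360 FPKM in its control. The summed level of the 8 was 7829 against 8433 FPKM in KMS28BM and 6516 against 7560 FPKM in KMS18, knockdown against control, most of it JCHAIN. Of the other marker lists, 1 T cell gene, CD3E, reached 1 FPKM in every library, and the summed T cell level was 3.41 against 1.14 FPKM in KMS28BM and 21.5 against 7.71 FPKM in KMS18, knockdown against control. CD3D, CD3G and CD2 stayed at or below 0.40 FPKM. S100A9 was the 1 myeloid gene past 1 FPKM, in KMS18 alone (6.41 FPKM in the knockdown and 1.80 FPKM in the control). No stromal or erythroid marker with a level here reached 1 FPKM. TRBC1, TRBC2, S100A8, COL1A2, COL3A1, HBA1, HBA2 and ALAS2 had no level under their symbols, so these markers were not read. The part of the marker levels in the results was not tested.

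Sequences that bear on the members are shown first. The E-box, the site that MYC and MAX share, was searched in RefSeq windows of 1 fixed length that cover the bases just before and the first bases after each annotated start (GRCh38.p14). The 6-letter word reads the same on both strands. Windows were matched by symbol for 8 of the 9 members, all but MYC, which was therefore not searched. Of these 8, 3 held the word, against 8.78% of 27305 genes with a window and 12.7% of the 10259 tested genes that matched a window. Since those are under 80% of the 14870 genes tested, the check against tested genes is void and its share is given for scale only. The matches lie at chr4:2262330-2262359 (minus strand) for MXD4, chr17:2401236-2401265 (minus strand) for MNT and chr17:42567038-42567067 (plus strand) for MLX. Each is printed 5′ to 3′ with the E-box in capitals.
MXD4: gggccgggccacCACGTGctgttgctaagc
MNT: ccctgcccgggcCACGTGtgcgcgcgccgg
MLX: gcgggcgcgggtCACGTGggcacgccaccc

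A second set of sequences belongs to the 3′ untranslated regions. Among genes called lower in the knockdown (the test is described with MYC below), AGTCTAA or CAGTCTA stood in an annotated 3′ untranslated region of 43.8% of 754 genes, against 9.25% of 508 genes called higher and 16.3% of 12887 tested genes. The words were taken up after the calls were known, on the sense strand of GENCODE transcripts (version 29, GRCh38), and they overlap in the 8-letter form. Of the 9 members, MXD1, MXD3 and MLX held 1 of the words or both, and so did PRKCA. MYC and MXI1, the members that fell, held neither, nor did MAX, MXD4, MNT and MGA. The sites are at chr2:69941207-69941236 and chr2:69941940-69941969 for MXD1 (plus strand), chr5:177306836-177306865 for MXD3 (minus strand), chr17:42572714-42572743 for MLX and chr17:66810314-66810343 for PRKCA (both plus strand). They are printed 5′ to 3′ as DNA, with the matched letters in capitals.
MXD1, first site: taagagtacgCAGTCTAAtttaatttcatg
MXD1, second site: ttgtcctttaCAGTCTAtttcttcccccaa
MXD3: gtcgggcttaCAGTCTAgcacttaccgcca
MLX: gcattgttccaAGTCTAAatgttaacctca
PRKCA: ttactattttgAGTCTAAaggttttctaaa

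MYC RNA was lower with the PKCα knockdown in both lines. MYC (ENSG00000136997, chromosome 8, 127735434 to 127741434, plus strand, GRCh38) had 304 FPKM in the KMS28BM knockdown, against 646 FPKM in the KMS28BM control. In KMS18 it had 258 FPKM in the knockdown, against 405 FPKM in the control. Both knockdown libraries thus lay below both control libraries, and the knockdown level was 47.1% of the control level in KMS28BM and 63.7% in KMS18. MYC stayed among the most abundant transcripts: it ranked 252nd by FPKM in each knockdown library, against 140th in the KMS28BM control and 184th in the KMS18 control.

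The MYC values rest on many counts. There were 21257 in the KMS28BM knockdown, against 44744 in its control, and 17490 in the KMS18 knockdown, against 26959 in its control. The log2 ratio of counts per library total was -1.06 in KMS28BM (95% interval -1.08 to -1.035) and -0.62 in KMS18 (95% interval -0.65 to -0.60), and these exact intervals cover counting error only. Over both lines the edgeR quasi-likelihood test put MYC at a log2 difference of -0.91 with an SE of 0.13 (adjusted p = 0.0128), and it was lower in 2 of 2 lines. The adjusted p was 0.0504 with no filter on low counts and 0.9999 without the cell line in the model, so the call ends in both settings. The fall of 5 of the 8 plasma cell markers given above went with that of MYC, with log2 differences of XBP1 and MZB1 close in size to that of MYC, and its part in the MYC result was not tested.

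**Figure D1:**
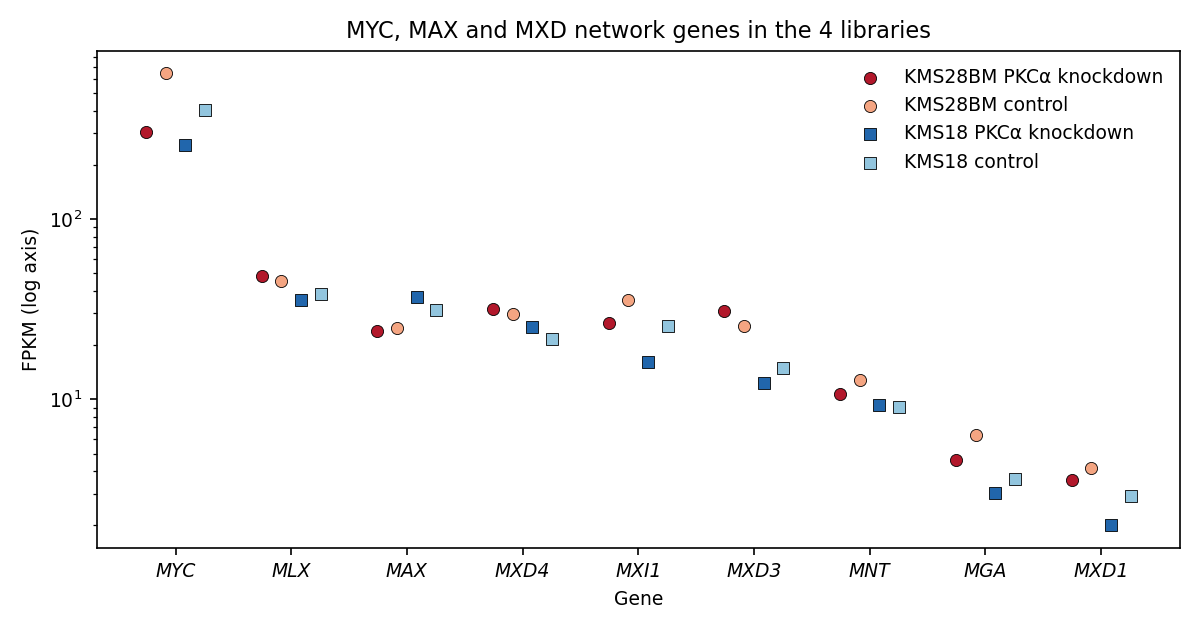
FPKM of the 9 network genes (log axis), ordered by mean level, with 1 point per library: KMS28BM PKCα knockdown, KMS28BM control, KMS18 PKCα knockdown and KMS18 control. MYC sits far above the other genes in every library, at 304 and 258 FPKM in the knockdowns and 646 and 405 FPKM in the controls, and MXD1 and MGA lie lowest.

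Among the 9 members 2 passed the test, MYC and MXI1, and both fell. Over all 14870 genes tested 8.82% passed, 5.25% lower and 3.57% higher. Median log2 difference over all genes was 0.02, and 8 of the 9 members had a value below 0, MXD4 being the exception.

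MXI1, an antagonist of MYC that is itself an MXD family member, was at 26.7 FPKM in the KMS28BM knockdown, against 35.45 FPKM in its control. In KMS18 it was at 16.2 FPKM in the knockdown, against 25.6 FPKM in the control. The knockdown level was 75.3% of control in KMS28BM and 63.3% in KMS18, from 2183 knockdown against 2762 control counts in KMS28BM and 1211 knockdown against 1809 control counts in KMS18. Each knockdown library was below its own control, but across lines the groups overlapped, since the KMS28BM knockdown lay above the KMS18 control. MXI1 (chromosome 10, 110207605 to 110287365, plus strand, GRCh38) fell in the edgeR test, with a log2 difference of -0.52 (SE 0.11, adjusted p = 0.0345), and was lower in 2 of 2 lines. This call too was lost with no filter (edgeR adjusted p = 0.0896) and without the cell line in the model (edgeR adjusted p = 0.9999).

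MAX, the shared partner, differed in direction between the lines. It had 24.0 FPKM in the KMS28BM knockdown, against 24.96 FPKM in its control, and 37.2 FPKM in the KMS18 knockdown, against 31.5 FPKM in its control. On counts the KMS18 difference was smaller: 2093 in the knockdown and 2002 in the control, a log2 ratio of 0.06 (95% interval -0.03 to 0.15). Over both lines the log2 difference of MAX was -0.07 (SE 0.10, edgeR adjusted p = 0.745), and its sign turned with limma on log2(FPKM + 1), at 0.09. No change of MAX was detectable with 2 lines, on either scale.

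The other antagonists varied in direction, and none passed the test. MXD1, the founding MXD gene, was at 3.57 FPKM in the KMS28BM knockdown, against 4.17 FPKM in its control, and at 2.0 FPKM in the KMS18 knockdown, against 2.92 FPKM in its control. The MXD1 log2 difference was -0.43 (SE 0.14, edgeR adjusted p = 0.101), lower in 2 of 2 lines. MXD4 lay the other way, at 31.9 FPKM in the KMS28BM knockdown, against 29.8 FPKM in its control, and at 25.3 FPKM in the KMS18 knockdown, against 21.7 FPKM in its control. It was higher in 2 of 2 lines, with an edgeR log2 difference of 0.25 (SE 0.11, adjusted p = 0.219). MXD4 lies on chromosome 4 (2247432 to 2262294, minus strand, GRCh38), 265225 bases from the end of NSD2, one of the genes the translocation activates.

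MXD3, the MXD gene usually linked to dividing cells, had the widest gap between the lines. It was at 31.0 FPKM in the KMS28BM knockdown, against 25.5 FPKM in its control, and at 12.3 FPKM in the KMS18 knockdown, against 14.9 FPKM in its control. The log2 ratio of counts was 0.20 in KMS28BM (95% interval 0.10 to 0.31) and -0.32 in KMS18 (95% interval -0.47 to -0.17). Over both lines the value was -0.12 (SE 0.15, edgeR adjusted p = 0.675), and it turned to 0.01 with limma on log2(FPKM + 1). MXD3 shares exon sequence with PRELID1 on the opposite strand and with RAB24, and the library kit does not keep strand, so its counts are uncertain. PRELID1 was at 203 FPKM in the KMS28BM knockdown, against 231 FPKM in its control, and at 131 FPKM in the KMS18 knockdown, against 191 FPKM in its control.

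MNT, the antagonist found in most cell types, had 10.7 FPKM in the KMS28BM knockdown, against 12.75 FPKM in its control, and 9.32 FPKM in the KMS18 knockdown, against 9.04 FPKM in its control. Its log2 difference was -0.23 (SE 0.12, edgeR adjusted p = 0.256). The KMS18 value for MNT was 0.04 on log2(FPKM + 1) and -0.10 on TMM counts, so its direction there depends on the scale. MLX, the partner of MondoA, had 48.4 FPKM in the KMS28BM knockdown, against 45.1 FPKM in its control, and 35.5 FPKM in the KMS18 knockdown, against 38.4 FPKM in its control (log2 difference -0.08, SE 0.10, edgeR adjusted p = 0.685). Its exons overlap PSMC3IP on the opposite strand, those of MXD1 overlap exons of SNRNP27, and these counts carry the same uncertainty. So do those of MXI1, MAX, MNT and MGA, whose exons each overlap an annotated gene on the opposite strand with a level not analysed here, and an exon of MXD4 overlaps a microRNA gene, MIR4800.

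MGA, the scaffold of PRC1.6, was at 4.62 FPKM in the KMS28BM knockdown, against 6.30 FPKM in its control, and at 3.02 FPKM in the KMS18 knockdown, against 3.62 FPKM in its control. It was lower in 2 of 2 lines, with an edgeR log2 difference of -0.34 (SE 0.11, adjusted p = 0.099). MGA and MXD1 missed the threshold, so their lower values are not called. MGA lies on chromosome 15 (41621224 to 41773081, plus strand), MXD1 on chromosome 2 (69897688 to 69942945, plus strand) and MXD3 on chromosome 5 (177301461 to 177312757, minus strand). MAX lies on chromosome 14 (65006174 to 65102695, minus strand). MNT (2384060 to 2401118, minus strand) and MLX (42567068 to 42573239, plus strand) lie on chromosome 17, on which PRKCA spans 66302636 to 66810743 on the plus strand (all GRCh38).

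**Figure D2:**
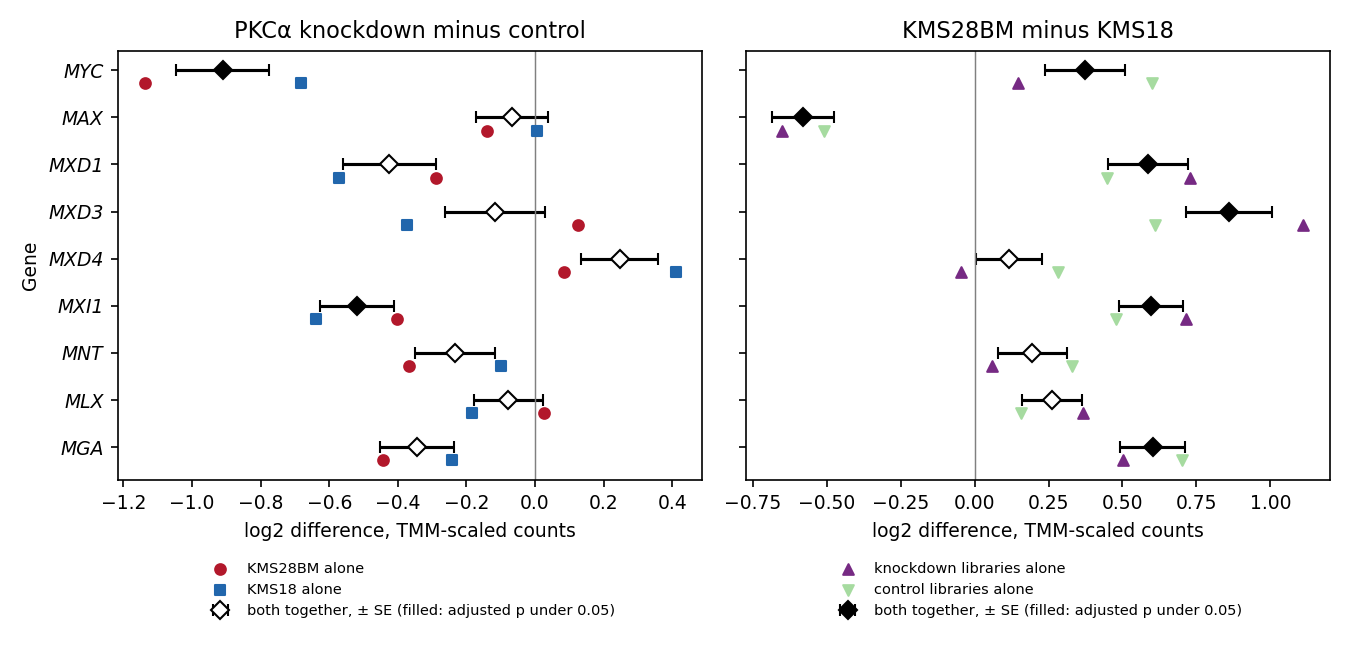
Log2 differences of the 9 genes on TMM-scaled counts, PKCα knockdown minus control (left) and KMS28BM minus KMS18 (right). Diamonds give the edgeR value ± SE (filled where the adjusted p was under 0.05), and small points give each line or construct alone. On the left MYC and MXI1 are filled and MAX, MXD3 and MLX have lines on both sides of 0, and on the right 6 genes are filled, of which MAX alone lies left of 0.

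Within a line, sizes were read without a test. A difference of at least 1 on log2(FPKM + 1), at 1 FPKM or more in 1 of the 2 libraries, was met downward by 0.751% and upward by 1.24% of 11455 genes in KMS28BM, and downward by 0.647% and upward by 0.818% of 11742 genes in KMS18. MYC in KMS28BM was the 1 member past that size, at -1.08, and 0 of 9 members passed it in KMS18. The MYC difference lay at percentile 0.55 of all genes in KMS28BM and, at -0.65, at percentile 3.02 in KMS18. MXI1 lay at percentile 8.58 in KMS28BM and 3.34 in KMS18.

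The make-up of the network shifted with MYC. MYC gave 62.7% of the summed FPKM of the 9 genes in the KMS28BM knockdown, against 77.8% in its control, and 64.7% in the KMS18 knockdown, against 73.3% in its control. The ratio of MYC to MAX FPKM was 12.7 in the KMS28BM knockdown, against 25.9 in its control, and 6.94 in the KMS18 knockdown, against 12.8 in its control. The 5 antagonists (MXD1, MXD3, MXD4, MXI1 and MNT) summed to nearly the same level in KMS28BM, 104 FPKM in the knockdown and 108 FPKM in the control. In KMS18 they summed to 65.2 FPKM in the knockdown, against 74.1 FPKM in the control.

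MYC to antagonist ratios followed: 2.93 in the KMS28BM knockdown, against 6.0 in its control, and 3.955 in the KMS18 knockdown, against 5.46 in its control. Both knockdown libraries were below both controls on this ratio. The antagonist to MAX ratio set the lines apart, with 4.33 in the KMS28BM knockdown and 4.31 in the KMS28BM control, and with 1.75 in the KMS18 knockdown and 2.35 in the KMS18 control. These are ratios of RNA levels per length, without a test, and say nothing of protein.

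**Figure D3:**
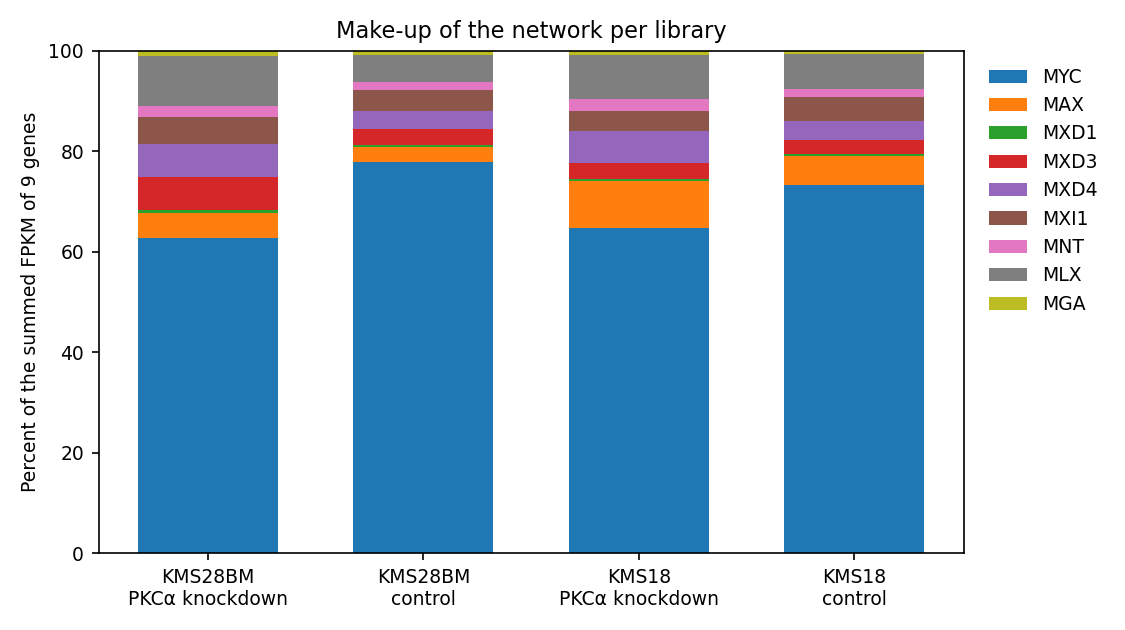
Share of each gene in the summed FPKM of the 9 network genes, 1 bar per library. The MYC share is 62.7% and 64.7% in the KMS28BM and KMS18 knockdowns, against 77.8% and 73.3% in their controls. The shares of MAX, MXD3, MXD4, MNT, MLX and MGA are larger in each knockdown bar than in its control. Shares of a fixed total rise when the large MYC share falls, also for MGA, whose own FPKM was lower in each knockdown.

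Between the lines, members passed the test about as often as genes at large. In KMS28BM against KMS18, 6 of the 9 members passed, 5 higher and 1 lower, while 62.9% of all 14870 genes passed, 30.6% higher and 32.3% lower. MAX was the member lower in KMS28BM, with an edgeR log2 difference of -0.58 (SE 0.10, adjusted p = 0.00257). MXD3 was the furthest apart, 2.52 times as high in KMS28BM as in KMS18 among knockdown libraries and 1.71 times among controls (log2 difference 0.86, SE 0.15, edgeR adjusted p = 0.00198).

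MXI1 (log2 difference 0.60), MGA (0.60) and MXD1 (0.59) were higher in KMS28BM, with edgeR adjusted p from 0.00263 to 0.00801. MYC was higher as well, at a log2 value of 0.37 (SE 0.13, edgeR adjusted p = 0.0446). Its KMS28BM to KMS18 ratio of FPKM was 1.18 among knockdown libraries and 1.59 among controls, so the lines lay closer together with the knockdown. The MYC call was lost with no filter (edgeR adjusted p = 0.084), at 5 CPM in 2 libraries (0.0628) and without the construct in the model (0.442). MXD1, MXI1 and MGA also lost theirs without the construct term, with edgeR adjusted p from 0.0617 to 0.138. MXD4, MNT and MLX were not called, with edgeR adjusted p-values of 0.395, 0.181 and 0.0571. The MXD4 value differed in sign by construct, at -0.05 in the knockdown libraries alone and 0.28 in the controls alone on TMM counts, and with limma on log2(FPKM + 1) MXD4 and MLX were called higher in KMS28BM (adjusted p = 0.0154 and 0.0278).

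The tables list a gene length that can differ between libraries, since it depends on which transcripts took the counts. The knockdown length was 102% of the control length for MYC in both lines, 106% for MXI1 in both lines, and 106% and 105% for MGA in KMS28BM and KMS18. Between the 10th and the 90th percentile of all identifiers at 1 FPKM, the knockdown length ran from 94.1% to 107% of control in KMS28BM and from 94.97% to 109% in KMS18. In KMS18, 3 members lay outside that range, MXD4 at 118%, MAX at 89.1% and MNT at 94.45%, and in KMS28BM none of the 9 did. FPKM divides by this length, so the scales part where it shifts. For MXD4 in KMS18, log2(FPKM + 1) gave 0.22 and the count ratio 0.47, and for MAX they gave 0.23 and 0.06. GENCODE lists 14 coding transcripts of MAX, from 330 to 3155 bases.

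Around the network, other MYC family genes were low. MYCN, the neural MYC paralog, was at 2.26 FPKM in the KMS28BM knockdown, against 1.59 FPKM in its control, and at 0.11 FPKM in the KMS18 knockdown, against 0.05 FPKM in its control. It did not pass the knockdown test (edgeR adjusted p = 0.272) but was higher in KMS28BM than in KMS18 (log2 difference 4.52, SE 0.42, edgeR adjusted p = 0.000113). MYCL was at 1.16 FPKM in the KMS28BM knockdown, against 1.24 FPKM in its control, and at 2.64 FPKM in the KMS18 knockdown, against 2.49 FPKM in its control. MLXIP, the glucose-sensing partner of MLX with the higher RNA level here, had 20.9 FPKM in the KMS28BM knockdown, against 17.2 FPKM in its control. In KMS18 it had 18.7 FPKM in the knockdown, against 17.4 FPKM in the control (edgeR adjusted p over both lines = 0.113). MLXIPL stayed between 0.19 and 0.29 FPKM.

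In the list of 10 MYC relatives and other E-box factors, 1 rose and 0 fell, while 3.57% of all 14870 genes were called higher and 5.25% lower. In this and the next small lists, 1 or 2 calls are too few to set a list apart from those shares. The gene that rose was USF2, an E-box binding factor outside the MAX network, at 112 FPKM in the KMS28BM knockdown, against 46.9 FPKM in its control. In KMS18 it was at 68.0 FPKM in the knockdown, against 40.5 FPKM in the control (log2 difference 0.94, SE 0.13, edgeR adjusted p = 0.0117). Of 17 MYC coactivators 2 fell and 0 rose: CCNT1, the cyclin of the elongation kinase P-TEFb (log2 difference -0.68, edgeR adjusted p = 0.0151), and WDR5, a histone methyltransferase subunit that binds MYC (-0.49, edgeR adjusted p = 0.0266). The median of the 17 was -0.06. Of the 15 SIN3 and histone deacetylase genes through which MXD proteins repress, 0 passed in edgeR in either direction, with a median of -0.19. DESeq2 called 0 of them as well, and in edgeR 3 were lower and 0 higher at an unadjusted p under 0.05.

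Of 10 PRC1.6 partners of MGA 2 fell and 0 rose, beside 5.25% of all 14870 genes called lower and 3.57% higher. RYBP, a Polycomb adaptor, was at 4.08 FPKM in the KMS28BM knockdown, against 7.46 FPKM in its control, and at 8.22 FPKM in the KMS18 knockdown, against 13.0 FPKM in its control (log2 difference -0.80, edgeR adjusted p = 0.0121). TFDP1, the partner of E2F factors, had a log2 difference of -0.70 (edgeR adjusted p = 0.015). The median of the 10 was -0.22.

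Genes that control MYC transcription or mRNA lay mostly below 0. Of 15 tested, 1 rose and 2 fell, while 3.57% of all 14870 genes were called higher and 5.25% lower. Their median was -0.27, and 12 of the 15 had a log2 difference below 0. At an unadjusted p under 0.05 in edgeR, 7 were lower and 2 higher. STAT3, a cytokine-activated factor, was at 17.9 FPKM in the KMS28BM knockdown, against 10.4 FPKM in its control, and at 29.4 FPKM in the KMS18 knockdown, against 16.6 FPKM in its control (log2 difference 0.75, edgeR adjusted p = 0.00953). IRF4, the plasma cell factor that drives MYC in myeloma, was at 90.8 FPKM in the KMS28BM knockdown, against 113 FPKM in its control, and at 62.3 FPKM in the KMS18 knockdown, against 125 FPKM in its control (log2 difference -0.73, edgeR adjusted p = 0.0339). IKZF3, the lymphoid zinc finger factor Aiolos, had -0.56 (edgeR adjusted p = 0.0184).

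MYC-activated genes lay lower in both lines. Of 76 tested, 12 fell and 0 rose, while 5.25% of all 14870 genes were called lower and 3.57% higher. Of the 76, 64 had a log2 difference below 0. The median was -0.26, against 0.02 over all genes tested. Within KMS28BM, 60 of 75 at 1 FPKM were lower in the knockdown (80.0%, median -0.19), against 42.9% of all genes (median 0.05). Within KMS18, 64 of 76 were lower (84.2%, median -0.24), against 44.9% of all genes (median 0.04). MYC itself had the larger fold in KMS28BM, and the list had the larger median in KMS18, a difference that was not tested. The number called lower was 26 with DESeq2 (which also called 1 higher), 4 with no filter and 0 without the cell line in the model. The list, like the others, was chosen with earlier results of these data known, so its lean is a description and not an independent test. The lean was not particular to MYC-activated genes. Regulators of MYC transcription or mRNA were lower in 76.9% of 13 genes (KMS28BM) and 83.3% of 12 genes (KMS18). For SIN3 and histone deacetylase genes the shares were 73.3% and 80.0% of 15. MYC coactivators were at 52.9% in each line, and MYC-repressed genes at 33.3% and 37.5%.

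Among the 12 called genes of this list, those with the largest differences were HK2, the first enzyme of glycolysis, SLC7A5, a carrier of large neutral amino acids, GNL3, a nucleolar GTPase, and MTHFD2, a mitochondrial folate enzyme. HK2 was at 8.17 FPKM in the KMS28BM knockdown, against 24.0 FPKM in its control, and at 6.06 FPKM in the KMS18 knockdown, against 15.3 FPKM in its control. Its log2 difference was -1.51 (SE 0.11, edgeR adjusted p = 0.00292). SLC7A5 had -1.37 (SE 0.14), GNL3 -0.70 (SE 0.09) and MTHFD2 -0.64 (SE 0.13), with edgeR adjusted p from 0.0056 to 0.034. The 6-letter AGTCTA stood in an annotated 3′ untranslated region of 15 of the 76 (19.7%), against 28.5% of tested genes and 58.2% of genes called lower. Those 15 had a median of -0.28 with 3 called lower, and the other 61 had a median of -0.26 with 9 called lower. An E-box stood in the RefSeq window of 52.4% of the 63 list genes that have one, beside the shares over all and tested genes given with the sequences.

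Genes known to be repressed by MYC, among them the cell cycle inhibitors CDKN1A, CDKN1B and CDKN2B, gave 0 edgeR calls in either direction among 11 tested, with a median of 0.11. At an unadjusted p under 0.05 there was 1 higher and 1 lower, and DESeq2 called 0. Of 7 MLX and MondoA targets 1 fell, ARRDC3, an arrestin-domain protein (log2 difference -0.67, edgeR adjusted p = 0.0181). For scale, 5.25% of all 14870 genes were called lower and 3.57% higher. TXNIP, the best known MondoA target, named after its value was seen, had a log2 difference of 0.36 and was not called (edgeR adjusted p = 0.0663).

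**Figure D4:**
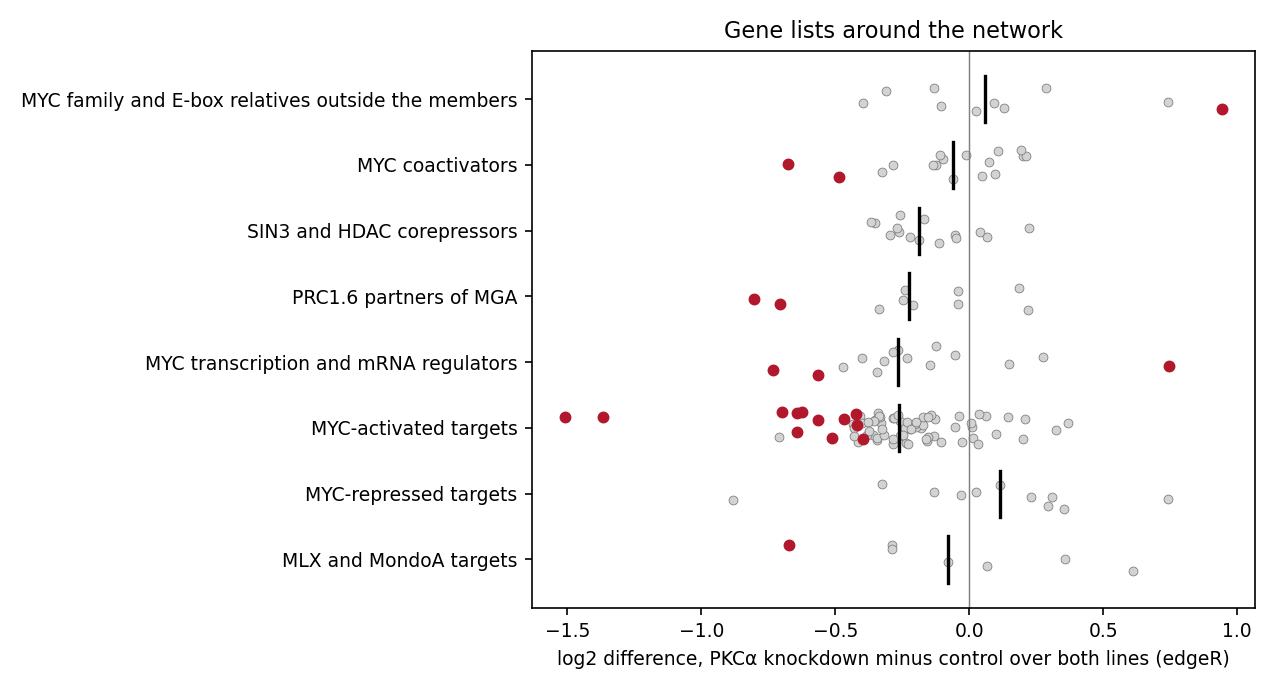
Log2 difference, PKCα knockdown minus control over both lines, of each tested gene in 8 lists around the network (edgeR). Red points passed at an adjusted p under 0.05, grey points did not, and black bars are medians. The MYC-activated targets hold 12 red points, all left of 0, with a median of -0.26.

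The genes whose levels over the 4 libraries were most like MYC were found by the root mean square difference of log2(FPKM + 1), centred per gene, among 8647 genes with a mean of 5 FPKM or more. The nearest was SLAMF7, a surface antigen of plasma cells, at 0.056, against a median of 0.573 over all genes compared. SLAMF7 had 104 FPKM in the KMS28BM knockdown, against 228 FPKM in its control, and 83.1 FPKM in the KMS18 knockdown, against 130.0 FPKM in its control. Also among the nearest were FAM104B at 0.0719, FKBP11, an endoplasmic reticulum folding enzyme, at 0.0824, and PHACTR4, a phosphatase regulator, at 0.105. This likeness rests on 4 libraries and is a description.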

How the data were processed

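For every gene the authors made an expected count (estimated, not always whole), an FPKM value and a length in bases, per the file headers, in a separate table for each library. STAR, Bowtie2 and HISAT, and the builds GRCh37 and hg19, are named without roles in the submitters' processing notes. Which program counted the reads is not given in the sources used. The tables hold no coordinates, and positions are from GENCODE version 29 (GRCh38), matched by identifier. Expected counts and FPKM were summed by symbol.

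Counts were rounded and tested with edgeR 4.0.16 (R 4.3.3): quasi-likelihood, TMM scaling, default filter (minimum count 10), cell line and construct in the model, Benjamini-Hochberg adjustment over all 14870 genes at 0.05. Libraries pair by cell line, per the labels. This leaves 1 residual degree of freedom, moderated to a prior of 5.85. Alternatives used DESeq2 1.42.0 and limma 3.58.1. Within a line, values are differences of log2(FPKM + 1), which understates the change of low genes. Named genes are all members, PRKCA, up to 4 called genes per direction and list, 4 MYC relatives and the 5 genes most like MYC. The members and lists were chosen with earlier results of these data known. Lists were written from general knowledge of the pathway. PVT1 was not analysed here, and a few results that the rule for named genes would give are not reported here.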

Additional observations from a re-analysis of the deposited data

Results flagged for a closer look

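In 4 members the knockdown and control levels stood in opposite order in the 2 lines, and the difference between lines was not tested, since 1 library per construct leaves no spread to test it with. On log2(FPKM + 1), the knockdown change in KMS28BM minus that in KMS18 was 0.526 for MXD3, -0.286 for MAX, -0.279 for MNT and 0.21 for MLX. For MXD3 and MLX the count intervals lay on opposite sides of 0 in the lines (MLX 0.04 to 0.17 in KMS28BM and -0.20 to -0.05 in KMS18). For MAX both intervals held 0, and for MNT the KMS18 interval held 0 (-0.15 to 0.07). These intervals cover counting error only and scale by library totals, without TMM. On TMM counts MLX was 0.0257 in KMS28BM and -0.18 in KMS18, with no interval made. In KMS28BM the direction of MLX was thus the same on both scalings, while its size depended on the scaling.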

How the results depend on the processing

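The knockdown test called 1312 genes (531 higher, 781 lower). It called 367 with no filter (124 higher, 243 lower) and 0 without the cell line in the model (0 higher and 0 lower, with 215 genes at an unadjusted p under 0.05). Lower calls numbered 450 with limma on log2(FPKM + 1) and 463 on log2(FPKM + 0.1). MYC-activated targets called lower numbered 12 in the edgeR test, 26 with DESeq2, 4 with no filter and 0 without the cell line. Under limma at those pseudocounts MAX turned to 0.0879 and 0.0899, and MXD3 to 0.0114 and 0.0075. Each line alone, on TMM counts, gave -0.14 (KMS28BM) and 0.0051 (KMS18) for MAX, 0.13 and -0.37 for MXD3, and 0.0257 and -0.18 for MLX. Between lines, MXD4 was -0.0457 in the knockdown libraries alone and 0.28 in the controls alone. MNT in KMS18 turned to -0.10 on TMM counts. For MYC and MXI1 the knockdown call held with median of ratios scaling, at 5 CPM, with DESeq2 and with both limma settings, and each line alone gave -1.14 and -0.68 for MYC (KMS28BM, KMS18). The cause of these shifts was not tested. Network shares were the same on TPM and with the largest identifier per symbol, and could not have differed. TPM rescales each library by 1 constant, and each member has 1 identifier, so neither setting tests the shares. With 1 library per construct and line, precision is limited by the number of cultures and not by depth.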
